A study of Homo sapiens with 2 samples.

Results

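The antiviral interferon-stimulated genes are genes that a cell switches on after interferon binds its surface receptors, and many of their products interfere with a step of virus replication. The 41 members described here were given as a list of gene symbols, and all 41 were found among the 33538 genes of the deposited matrices. They were measured by single-cell RNA sequencing (10x Chromium, 3' end counting) in A375, an established human melanoma cell line. The study compared 2 groups. The parental cells were untreated A375. The persister cells were A375 that remained after 15 days with cytotoxic T lymphocytes (CTLs) against NY-ESO-1, a cancer-testis antigen, with 7.5 ng/mL interleukin 2 in the medium and CTLs renewed at intervals of 3 days. Whether the untreated cells also received interleukin 2 is not stated. Each group was 1 library of 1 cell line, so no test between groups was possible and no p-value is given.

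Interferon signalling runs through receptor pairs, the JAK kinases and the STAT transcription factors. Type I and type III interferons, made by infected or stressed cells, lead to a transcription factor complex that holds STAT2 and IRF9 and binds the interferon-stimulated response element (ISRE) in promoters. Interferon gamma, made by activated T cells, acts mainly through the gamma-activated site (GAS). The members encode sensors of foreign RNA, enzymes that degrade or modify nucleic acids, membrane proteins that block virus entry or release, and the ubiquitin-like protein ISG15 with the enzymes that attach it.

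The parental library held 88214007 UMIs (unique molecular identifiers, 1 per captured molecule) in 10751 barcodes, and the persister library 80802724 UMIs in 7144 barcodes. A barcode was kept if it had 500 genes or more, 1000 UMIs or more, no more than 20% mitochondrially encoded UMIs, and fewer than 3 of 6 T cell genes detected (CD2, CD3D, CD3E, CD52, PTPRC and TRAC). This left 10630 parental cells with a median of 7590 UMIs and 6605 persister cells with a median of 11284. The T cell criterion set aside 162 persister barcodes and 0 parental ones. Of 12 melanoma markers, 8 reached 5 CPM (UMIs per 1000000) in each library, and MLANA was at 0 in the parental library. The libraries shared 38 barcodes. T cell RNA was still present in the kept persister cells: 12 other T cell and cytotoxic genes summed to 2.01 CPM in parental cells, 9.92 CPM in persister cells and 5409 CPM in the 162 set-aside barcodes. At that ratio, RNA as in those barcodes would make up 0.183% of the persister sum and at most 1.12% of any member's UMIs (HERC5). The 8 myeloid markers had a sum of 12.1 CPM (parental) and 26.4 CPM (persister). Among them FCER1G was at 0.874 and 14.0 CPM and CD68 at 7.41 and 10.6 CPM, while FCGR3A and TYROBP were at 0 in both libraries. Lower in the persister library were LYZ (3.60 and 1.73 CPM), CD14 (0.102 and 0.0126 CPM) and CSF1R (0.0794 and 0.0377 CPM). AIF1 was at 0 and 0.0126 CPM. The 4 B cell markers summed to 0.148 and 0.151 CPM. The part of these markers in the members' levels was not tested.

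Most members carry an ISRE-like sequence close to their start. RefSeq promoter windows (GRCh38.p14, 250 bases before to 50 bases after a transcription start) were matched for 34 of the 41 members and searched on both strands. The ISRE-like letters searched were GAAA, any 2 bases and GAAA. They were found in 25 of 34 members (73.5%) and in 4.38% of all 27305 genes with a window. The letters TTCNNNGAA, a GAS-like sequence that reads the same on both strands, were found in 9 of 34 members (26.5%) and in 9.38% of all genes, and 7 members had both. The ISRE-like matches began between 196 bases before and 12 bases after the start. Matches overlapped each other in IFIH1, BST2, ISG15 and HERC5, and overlapped a GAS-like match in IFITM1, BST2, MX1 and IFI27. OAS2, OASL, IFIT2, IFITM2, MX2, IRF7 and TRIM22 were not matched. The stretches below show the matches of ISG15 and of 3 pairs of members from the same gene cluster. They run 5' to 3' on the gene's own strand, and capitals mark the ISRE-like letters or their reverse complement (TTTC, any 2 bases, TTTC).
ISG15: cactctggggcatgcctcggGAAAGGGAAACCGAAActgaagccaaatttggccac
IFI44L: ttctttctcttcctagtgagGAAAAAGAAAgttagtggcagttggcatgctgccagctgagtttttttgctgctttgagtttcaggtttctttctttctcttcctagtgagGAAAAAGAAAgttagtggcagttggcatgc
IFI44: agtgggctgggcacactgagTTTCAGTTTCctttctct
PARP9: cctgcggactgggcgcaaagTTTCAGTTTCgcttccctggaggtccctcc
DTX3L: ggagggacctccagggaagcGAAACTGAAA
IFIT3: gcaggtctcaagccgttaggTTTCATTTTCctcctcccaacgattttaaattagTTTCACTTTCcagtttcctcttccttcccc
IFIT1: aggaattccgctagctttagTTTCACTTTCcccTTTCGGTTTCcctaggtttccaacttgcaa
The ISG15 stretch is chr1:1013364-1013419 on the plus strand, and its 2 matches share bases. The IFI44L and IFI44 stretches are chr1:78620264-78620404 and chr1:78649751-78649788, both on the plus strand. PARP9, at chr3:122564312-122564361 on the minus strand, and DTX3L, at chr3:122564312-122564341 on the plus strand, are transcribed away from each other, and the capitals in both stretches are the same 10 base pairs of the genome read from opposite strands. The IFIT3 and IFIT1 stretches are chr10:89327821-89327904 and chr10:89392487-89392549 on the plus strand. A match of letters is a description and no measure of binding.

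**Figure D1:**
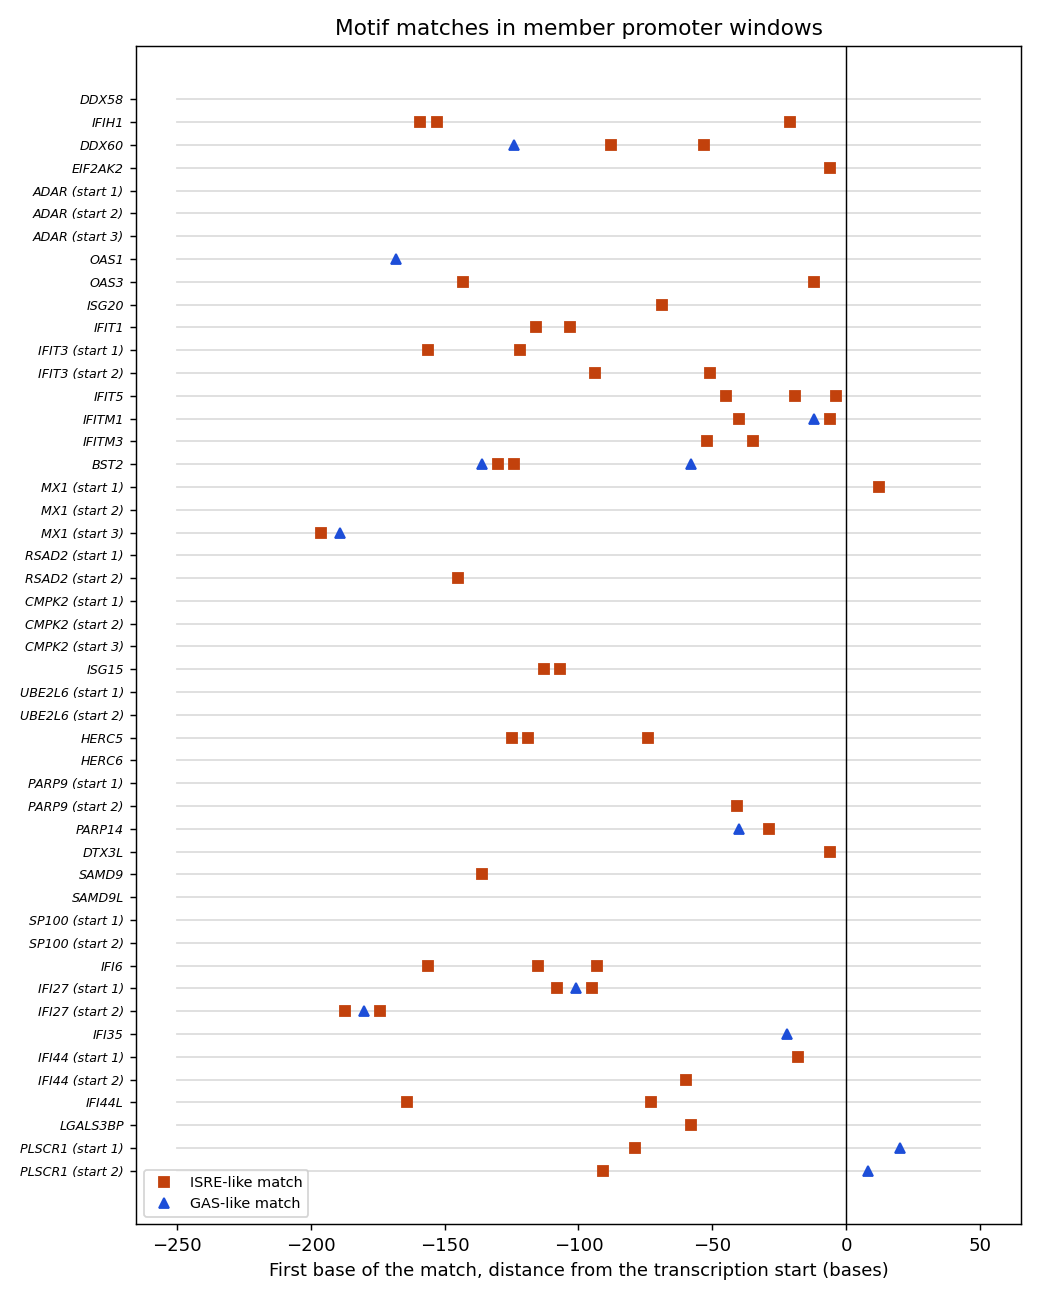
Positions of ISRE-like (squares) and GAS-like (triangles) matches in the promoter windows of the 34 matched members, 1 line per annotated start, with distance from the start in bases on the horizontal axis. ISRE-like matches lie between -196 and 12 bases from the start, and 9 members have none.

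The members as a group stood higher in the persister library. Their summed level was 1020 CPM in the parental and 4023 CPM in the persister library, a ratio of 3.94 (95% exact interval of counting error 3.91 to 3.97). A gene was called measured at 5 CPM or more in either library, which 39 members were, and IFITM1 and CMPK2 were not. Of the 39, 32 were at least 2-fold higher in persister cells, where 10.1% of the 9938 measured genes were, and 0 were at least 2-fold lower, where 10.8% were. At least 10-fold higher were 17 of the 39, against 1.69% of measured genes. The median log2 fold, taken on log2(CPM + 1), was 2.64 over the measured members and -0.15 over all measured genes. That scale understates the difference of low genes. With the TMM scaling of edgeR the count was 34 of 39 in place of 32, and the median over all genes was -0.03. Among all genes past 2-fold, 48.3% were on the higher side with CPM and 58.8% with TMM.

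At equal depth most members were seen in a larger share of persister cells. Every cell with at least 5000 UMIs was thinned to 5000, which used 9094 parental and 5897 persister cells and left out 1536 and 708. The share of cells with a UMI of a member had a median over members of 2.98% in parental and 18.6% in persister cells, and 4.40% and 34.2% before thinning. A share of 10% or more was reached by 13 members in parental and 30 in persister cells, and 9 members were seen in at least 50% of persister cells. The persister interval of this share lay wholly above the parental one for 36 of the 39 measured members, against 28.9% of the 9938 measured genes, and wholly below it for 0, against 48%. The intervals overlapped for HERC5, IFITM2 and MX2, and the MX2 share was lower in persister cells (13.3% and 12.1%). Whether any cell type in these libraries lacks these genes was not tested. The 162 T cell barcodes, of 3568 UMIs at the median, held a member in 2.47% to 74.1% of barcodes, and 28 of 41 members had a higher CPM there than in persister cells. The 12 melanoma markers summed to 628 CPM in these barcodes and 1510 CPM in persister cells. The member levels in these barcodes may therefore not be those of T cells alone.

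**Figure D2:**
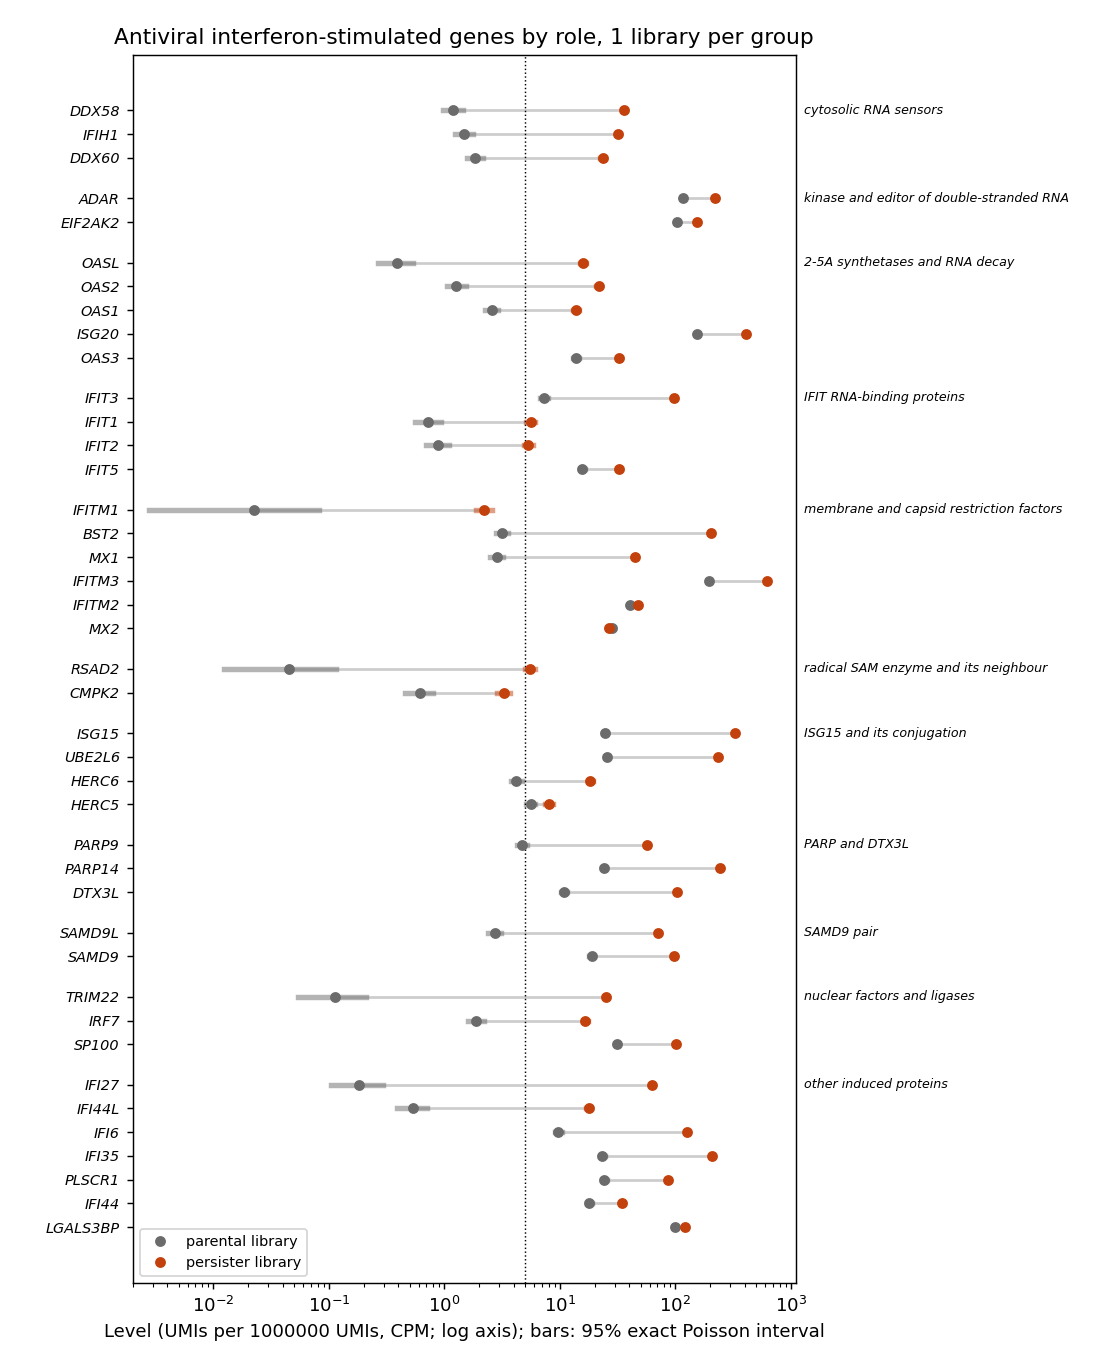
Level of each of the 41 members in the parental (grey) and persister (orange) library in CPM on a log axis, grouped by role, with 95% exact Poisson bars and a dotted line at 5 CPM. The points lie farthest apart for IFI27, TRIM22, RSAD2 and IFITM1, and closest for MX2, IFITM2 and LGALS3BP.

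The cytosolic RNA sensors were low in parental cells and higher in persister cells, 3 of 3 past 2-fold. DDX58 (RIG-I), which binds RNA with a 5' triphosphate, stood at 1.19 CPM in the parental and 36.2 CPM in the persister library, a ratio of 30.4 (24.98 to 37.2). IFIH1 (MDA5), a sensor of long double-stranded RNA, stood at 1.49 and 31.9 CPM, and DDX60, a related helicase, at 1.85 and 23.5 CPM. Each of the 3 was seen in at most 1.04% of parental cells and in 11.0% to 15.0% of persister cells at 5000 UMIs. EIF2AK2 and ADAR, whose proteins also act on double-stranded RNA, were already abundant in parental cells. EIF2AK2 (PKR), a kinase that halts translation, stood at 103 and 153 CPM, a ratio of 1.48 (1.44 to 1.52). ADAR, which edits adenosines in double-stranded RNA, stood at 116 and 221 CPM, a ratio of 1.90. Neither passed 2-fold by CPM, while ADAR did with TMM (2.06) and with DESeq2 size factors (2.02).

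All 5 members of RNA decay were past 2-fold. OAS1, OAS2 and OAS3, which lie side by side on chromosome 12 and make the 2-5A messenger that activates RNase L, were at 2.58 and 13.9 CPM, 1.27 and 21.7 CPM, and 13.8 and 32.4 CPM in parental and persister cells. The ratios differed within the cluster, from 2.35 for OAS3 to 17.0 for OAS2. OASL, a relative without synthetase activity, was among the 5 measured members with the largest ratio, at 0.386 and 15.9 CPM (ratio 41.1, 29.2 to 59.6). ISG20, an exonuclease, was seen in 48.0% of parental and 81.1% of persister cells, at 154 and 412 CPM.

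The IFIT genes, a cluster on chromosome 10 whose products bind foreign RNA ends, were past 2-fold in 4 of 4. IFIT3 was at 7.28 CPM (parental) and 97.7 CPM (persister), in 3.98% and 33.2% of cells. IFIT1 (0.726 and 5.61 CPM) and IFIT2 (0.874 and 5.36 CPM) remained close to the 5 CPM limit, in 2.48% and 2.27% of persister cells. The levels of these 2 rested on few cells, described below. IFIT5 was at 15.7 and 32.6 CPM, a ratio of 2.08 that dropped to 1.94 with cells thinned to 5000 UMIs.

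The membrane and capsid factors were uneven. BST2 (tetherin), which holds budding virions at the cell surface, had the fourth largest ratio of the measured members, at 3.18 CPM (parental) and 205 CPM (persister), a ratio of 64.4 (57.2 to 72.7). It was seen in 1.56% of parental and 59.5% of persister cells. IFITM3, which blocks fusion of viruses in endosomes, was at 194 and 626 CPM and in 61.1% and 92.0% of cells. Its neighbour IFITM2 was at 40.9 and 47.3 CPM, a ratio of 1.16 (1.11 to 1.21). IFITM1 had 2 UMIs in parental and 176 in persister cells (0.0227 and 2.21 CPM), a ratio of 97.5 with an interval of 26.6 to 811. The annotated range of IFITM1 lies within that of IFITM2 on chromosome 11, so the split of counts between them is uncertain. MX1, a dynamin-like GTPase against RNA viruses, was at 2.84 and 44.4 CPM. Its neighbour on chromosome 21, MX2, was the one measured member below 1, at 28.5 and 26.8 CPM, a ratio of 0.940 (0.887 to 0.996) that was 1.02 with TMM, so its direction depended on the scaling.

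RSAD2 (viperin), an enzyme that makes a chain-terminating nucleotide, had 4 UMIs in parental and 439 in persister cells, or 0.0454 and 5.52 CPM. The ratio of 122 had a wide interval, 47.1 to 448, and was 265 at 5000 UMIs, where 1 parental cell held a UMI. Even so, a UMI was found in only 1.98% of persister cells at that depth. CMPK2, a mitochondrial nucleotide kinase whose annotated range overlaps that of RSAD2 on the opposite strand of chromosome 2, was at 0.613 and 3.26 CPM.

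Of the ISG15 system, ISG15 itself was at 24.6 and 327 CPM, a ratio of 13.3, and was seen in 11.3% of parental and 70.6% of persister cells. UBE2L6, the enzyme that carries ISG15 to its targets, was at 25.5 and 235 CPM, in 11.7% and 67.7% of cells. The HERC genes had smaller ratios. HERC5, the main human ISG15 ligase, was at 5.58 and 8.06 CPM (ratio 1.44, 1.28 to 1.63), and its relative HERC6 at 4.21 and 18.3 CPM. HERC5 was detected in 22.8% of the T cell barcodes and in 8.19% of persister cells before thinning.

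PARP9, PARP14 and DTX3L were close to each other in ratio. PARP9 and DTX3L form a complex that modifies histones and viral proteins, and their promoter windows share the match shown above. They stood at 4.71 and 56.7 CPM and at 10.8 and 104 CPM, ratios of 12.03 and 9.61. PARP14, an ADP-ribosyltransferase, was at 24.1 and 245 CPM, a ratio of 10.2. SAMD9 and SAMD9L, neighbouring genes on chromosome 7 that restrict poxviruses, were at 18.8 and 96.6 CPM and at 2.72 and 71.1 CPM.

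The nuclear members were all past 2-fold. IRF7, the transcription factor that amplifies type I interferon production, was at 1.88 and 16.6 CPM. SP100, a component of PML nuclear bodies, was at 31.3 CPM in parental cells and at 100.5 CPM in persister cells. TRIM22, a ubiquitin ligase that restricts several viruses, had 10 UMIs in parental and 1998 in persister cells, or 0.113 and 25.1 CPM. Its ratio was 221 (120 to 462). Among cells without a MKI67 UMI the ratio was 386, but it rested on 1 parental UMI and is uncertain.

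IFI27, a mitochondrial protein often used as a marker of interferon responses, had the largest ratio of the measured members. It had 16 UMIs in parental and 4972 in persister cells, or 0.182 and 62.5 CPM, a ratio of 344 (212 to 603). Among cells without a MKI67 UMI the ratio was 536, but it rested on 2 parental UMIs and is uncertain. IFI27 was seen in 0.088% of parental and 21.4% of persister cells at 5000 UMIs, and in 6.17% of T cell barcodes. IFI6, a related membrane protein, was at 9.68 and 125 CPM, and IFI35 at 23.4 and 207 CPM. IFI44L was at 0.533 and 17.8 CPM (ratio 33.4), whereas its neighbour IFI44 was at 17.9 and 34.8 CPM (ratio 1.94, and 2.10 with TMM). PLSCR1, a membrane scramblase, was at 24.3 and 86.7 CPM. LGALS3BP, a secreted galectin-binding protein, was nearly level, at 99.95 and 122 CPM (1.22, 1.18 to 1.25).

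Members that were near level included genes with an ISRE-like match (EIF2AK2, HERC5 and LGALS3BP). The median log2 fold was 2.64 over the 25 members with a match and 2.06 over the 9 without. These sets include IFITM1 (with a match) and CMPK2 (without), which were under the 5 CPM limit. Ratios ran from 1.22 (LGALS3BP) to 344 (IFI27) with a match, and from 1.90 (ADAR) to 30.4 (DDX58) without one.

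The higher level was spread over nearly all persister cells. At 5000 UMIs per cell the members summed to a median of 5 UMIs in parental cells (5th to 95th percentile 2 to 9) and 19 in persister cells (9 to 37). Of 5897 persister cells, 93.9% (93.3 to 94.5%) had more than 9 member UMIs, the 95th percentile of parental cells, against 4.94% of parental cells. A cell without any member UMI was found 68 times among parental cells and 0 times among persister cells, which allows a share of up to 0.0509%. A parental cell held UMIs of 4 members at the median and a persister cell of 11. One library per group was measured, so these quantiles describe cells and carry no replicate error.

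**Figure D3:**
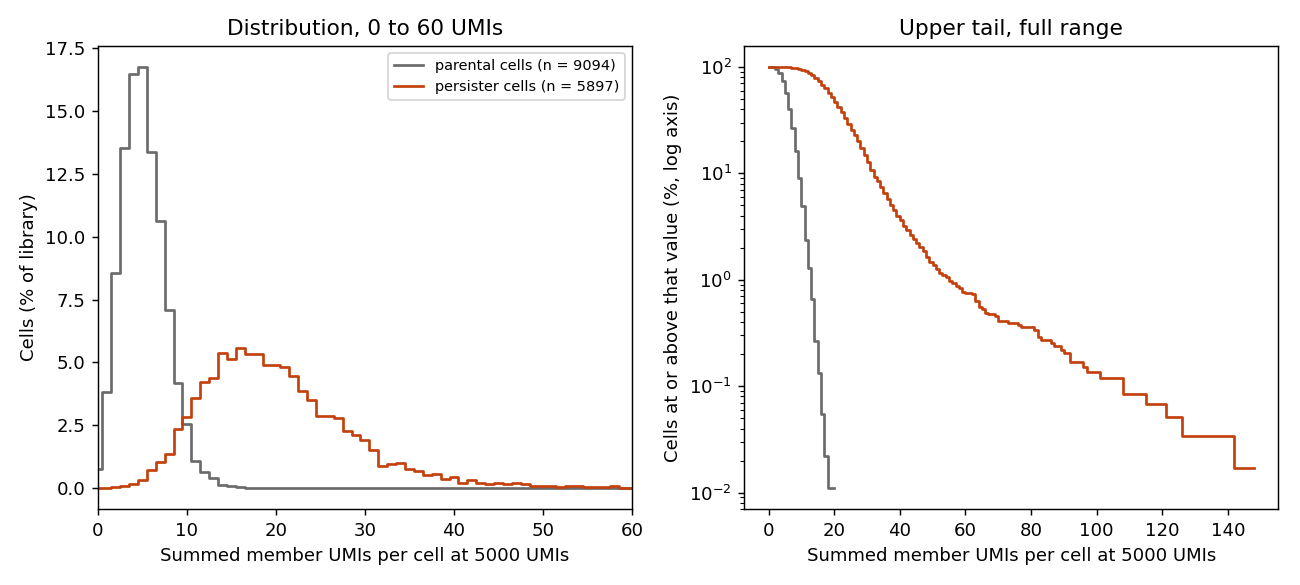
Summed member UMIs per cell after thinning to 5000 UMIs, as the percent of cells at each value (left) and the percent at or above each value on a log axis (right), for 9094 parental and 5897 persister cells. Parental cells end at 19 UMIs, while persister cells have a median of 19 and reach 148.

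Persister cells also differed among themselves. The variance of the sum was 1.16 times its mean over parental cells and 4.89 times over persister cells, where independent sampling of equal cells would give about 1. Single members were uneven to different degrees. The ratio of variance to mean was largest for IFIT2 (3.19), ISG15 (3.01), RSAD2 (2.81) and IFI27 (2.28). It was 1.08 for UBE2L6, PARP9 and ADAR. The median over the 7280 genes seen in at least 5% of persister cells was 1.03, and 22.1% to 23.9% of these genes had a larger ratio than those 3 members. Over the 5897 cells, which share 1 library, ISG15 had the largest Pearson r with the sum of the other members (0.557), followed by IFIT3 (0.426) and IFI6 (0.404). Of the 35 members seen in at least 5% of cells, 17 had r above 0.2. Of 7232 genes outside the list seen in at least 5% of cells, 12 had r above 0.2 with the sum of all members. In parental cells the largest such r was 0.0515. Members were seen there in a median of 2.98% of cells, and such low counts limit r, so the 2 libraries are not compared on it. Over persister cells the pair with the largest r was ISG15 and IFI6 (0.408), and the median over 595 pairs was 0.0547.

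A small set of persister cells held very many member UMIs. The 58 cells above the 99th percentile (54 UMIs) had a median of 65.5 member UMIs from 22.5 members, and 8 of them had at least 100. No parental cell exceeded 19. These cells were chosen by the sum itself, so for each member the cells were ranked again by the other members, and the share of its UMIs in the highest 59 cells (1.00% of cells) was taken. RSAD2 had 40.1% of its UMIs in these cells (32.7 to 47.9%), IFIT1 25.5% and IFIT2 23.3%. HERC5 had 10.7%, IFI27 9.06% and ISG15 7.34%. At the other end, UBE2L6 had 1.40%, LGALS3BP 1.45% and PARP9 1.56%, and the median over members was 3.87%. With a second random thinning RSAD2 had 31.4% and IFIT2 16.4%, both under the lower bounds of the first (32.7% and 17.2%). The intervals take each UMI as independent, while UMIs of these members gather in single cells, so they are too narrow. Without the 58 cells, RSAD2, IFIT1 and IFIT2 were under 5 CPM, and 29 of the 36 members then measured were at least 2-fold higher.

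**Figure D4:**
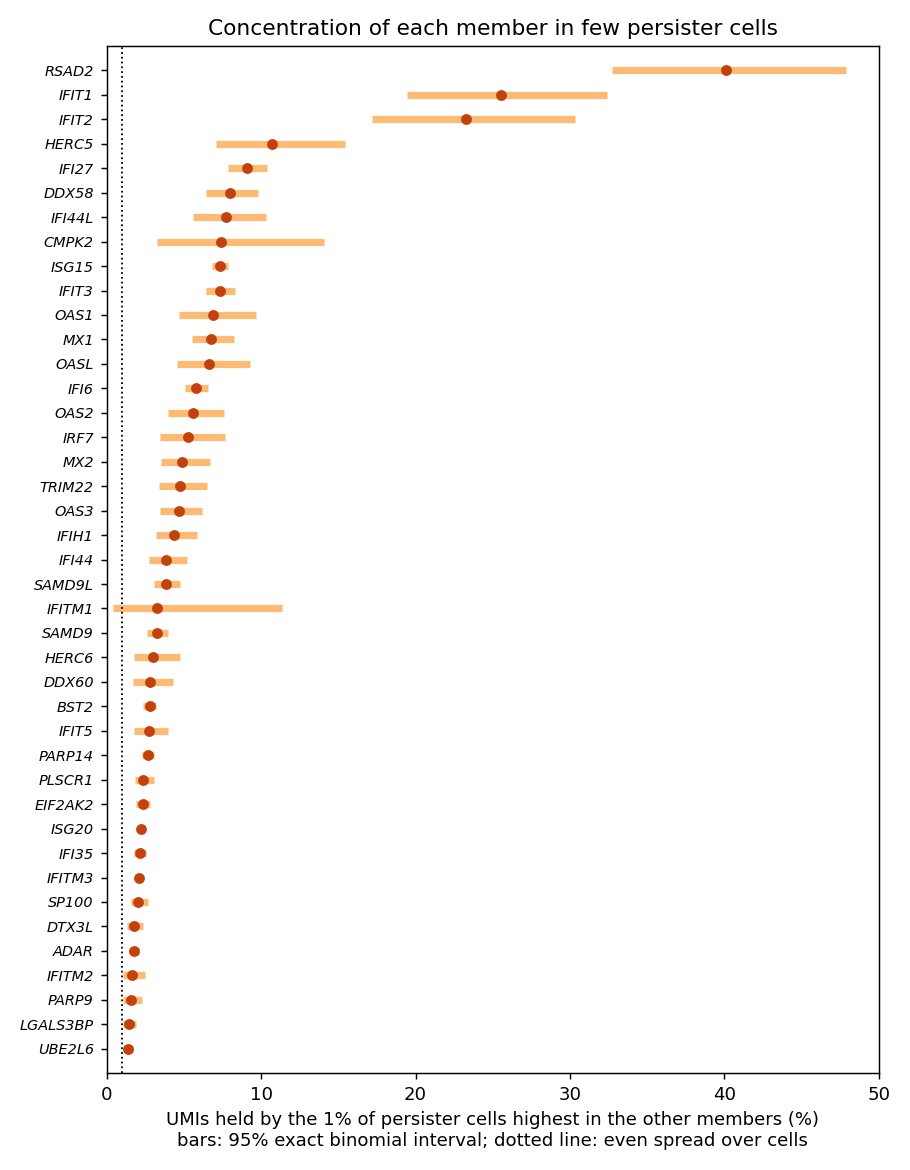
Percent of each member's UMIs held by the 59 of 5897 persister cells that rank highest in the other members, with 95% exact binomial bars and a dotted line at the 1% that an even spread gives. RSAD2, IFIT1 and IFIT2 stand apart at 23.3% to 40.1%, while UBE2L6 has 1.40%. The bars take each UMI as independent and leave out the spread between cells.

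Some genes outside the list were also high in the 58 cells. CXCL10, a chemokine that attracts T cells, was at 828 CPM in them and 63.4 CPM in the other persister cells, a ratio of 13.1 (11.4 to 14.9). TNFSF13B (BAFF), a B cell survival cytokine, was at 155 and 10.9 CPM, and USP18, which removes ISG15 from proteins and was picked after its values were seen, at 114 and 12.1 CPM. CXCL10 and TNFSF13B were named for their large Pearson r with the same sum that chose these cells. Their high ratios are therefore partly built in by that choice. No such ratio was taken over all genes as background. Other genes of the interferon-gamma comparison list, which holds CXCL10, had a range of ratios. CXCL11 was at 27.6 and 7.95 CPM (3.47), GBP4 at 121 and 35.9 CPM (3.37) and GBP1 at 441 and 162 CPM (2.72). IRF1 was at 1186 and 964 CPM (1.23) and B2M at 8569 and 7268 CPM (1.18). The 58 cells had a median of 10789 UMIs before thinning against 11955 in the other cells, and 8.39% against 7.71% mitochondrially encoded UMIs. The 6 T cell genes of the cell filter stood at 3.45 CPM in them (1 UMI) and at 5.69 CPM in the others.

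Among the 10 genes outside the list with the largest Pearson r with the summed member UMIs, over 5897 persister cells and 7232 candidate genes, were CXCL10 (0.275), GBP1 (0.274), TNFSF13B (0.249), B2M (0.246), XAF1 (0.244), VAMP5 (0.237), NEAT1 (0.229), HLA-B (0.214) and LAP3 (0.212). The median over the candidates was -0.00178. The lowest were H2AFZ (-0.248), HIST1H4C (-0.240) and CKS1B (-0.224), genes of chromatin assembly and cell division. Next came ZFAS1 (-0.216) and SNAPC1 (-0.198), to which that description does not apply. The cells share 1 library and these values are descriptions. The sum itself had r of -0.128 with depth before thinning.

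Dividing cells were compared with the rest by MKI67, a gene transcribed in cycling cells. At 5000 UMIs, 1820 persister cells (30.9%) had a MKI67 UMI and 4077 had none. A cycling cell can lack a MKI67 UMI at this depth, so the negative cells may include some. The members summed to 3591 CPM (3552 to 3630) in MKI67-positive and 4346 CPM (4317 to 4375) in MKI67-negative persister cells, a ratio of 0.826 (0.816 to 0.837). The median was 16 member UMIs per positive cell and 20 per negative cell. In both sets most cells had more than those 9 UMIs, 91.0% of positive and 95.2% of negative cells.

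The lower level in MKI67-positive cells was broad and small for most members. Of 39 measured members, 33 were lower, with a median log2 ratio of -0.21 against 0.01 over all genes, and the counting interval lay below 1 for 24 and above 1 for 0. Over the 9488 genes compared, it lay below 1 for 17.1% and above 1 for 23.8%. The intervals by MKI67 take each UMI as independent and leave out the spread between cells, so they are too narrow for uneven members. At least 1.5-fold lower were 4 of the 39, against 3.67% of the 9488 genes compared, and 0 were 1.5-fold higher, against 5.86%. OAS1 was at 9.89 CPM in positive and 17.0 CPM in negative cells (ratio 0.581, 0.456 to 0.735). IFIT1 was at 3.41 and 7.70 CPM (0.442, 0.291 to 0.653), RSAD2 at 3.52 and 6.87 CPM (0.512, 0.337 to 0.756) and IFI27 at 46.5 and 77.2 CPM (0.602, 0.539 to 0.671). As given above, 40.1% of RSAD2 and 25.5% of IFIT1 UMIs lay in the 59 persister cells highest in the other members. ISG15 was at 256 and 380 CPM (0.673), and IFITM3 at 526 and 702 CPM (0.749). OAS3, IFIT5, MX2, DTX3L, SP100 and PLSCR1 had ratios between 1.02 and 1.06, each with an interval that held 1. Among the 58 cells of highest sum, 12 (20.7%, 11.2 to 33.4%) were MKI67-positive, against 31.0% of the others.

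MKI67-positive persister cells had more UMIs before thinning than negative ones (median 14191.5 and 11132), a lower share of mitochondrially encoded UMIs (7.06% and 8.07%) and slightly more of the 6 T cell genes (7.36 and 4.91 CPM). The part of these in the result was not tested. The summed ratio was 0.841, 0.828 and 0.876 in cells of under 10000, 10000 to under 15000 and at least 15000 UMIs before thinning. In parental cells the members summed to 1013 CPM in 6319 MKI67-positive and 1062 CPM in 2775 negative cells, a ratio of 0.954 (0.935 to 0.972). None of the 22 members measured there passed 1.5-fold in either direction, where 0.82% of genes were higher and 0.305% lower. The interval lay above 1 for EIF2AK2 and IFI44, against 13.6% of the 9512 genes compared, and below 1 for ISG20, IFITM2, IFITM3 and IFI35, against 8.13%. The difference between the libraries in this ratio was not tested.

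**Figure D5:**
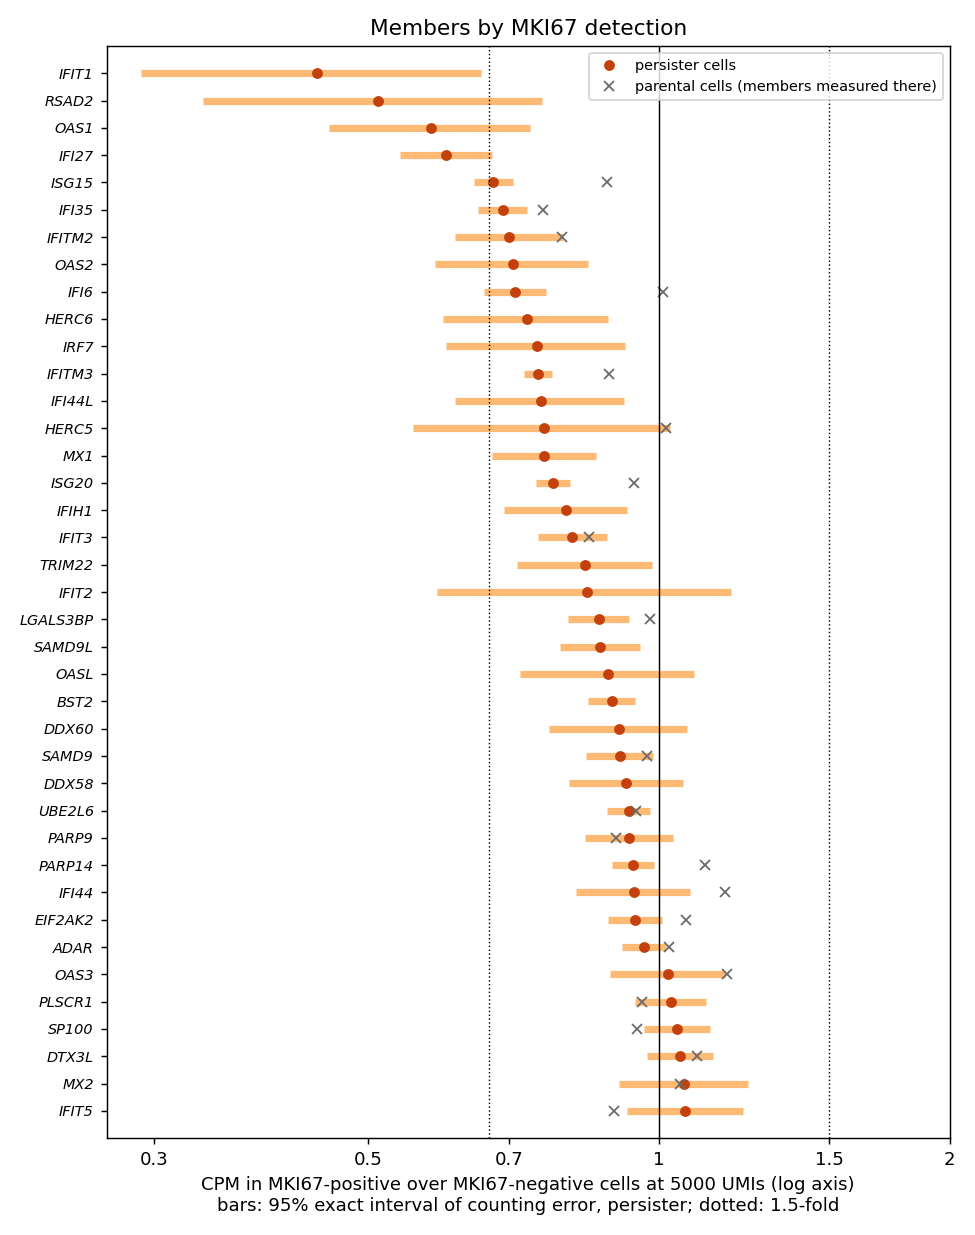
Ratio of CPM in MKI67-positive over MKI67-negative cells at 5000 UMIs for the 39 measured members, persister cells as points with 95% exact bars and parental cells as crosses where measured, on a log axis with dotted lines at 1.5-fold. IFIT1, RSAD2, OAS1 and IFI27 lie below the lower dotted line, and most other persister points lie between it and 1. The bars cover counting error only.

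The signalling genes upstream of the members differed in the same comparison. Of 16 receptors and transducers, 13 were measured, 6 were at least 2-fold higher and 0 lower, against 10.1% and 10.8% of all measured genes. The same shares apply to the lists that follow. STAT2 was at 5.01 and 50.1 CPM and IRF9 at 2.13 and 25.2 CPM, both parts of the complex that binds the ISRE, with ratios of 10.0 and 11.8. IRF1, an interferon-induced transcription factor, was at 17.0 and 947 CPM, and JAK2, a kinase of the interferon-gamma receptor, at 3.48 and 8.54 CPM. Of the receptor genes, IFNAR1 was at 34.7 and 43.9 CPM, IFNGR1 at 7.26 and 9.05 CPM and IFNGR2 at 25.8 and 32.9 CPM. IL10RB, a chain of the type III interferon receptor, was at 0.908 and 4.61 CPM, a ratio of 5.08 (3.98 to 6.56) below the 5 CPM limit.

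Interferon transcripts were scarce in the melanoma cells. Of 21 interferon genes, 0 reached 5 CPM and 17 were at 0 in both libraries, among them all 13 interferon alpha genes listed. IFNB1 had 0 UMIs in parental and 4 in persister cells, in 4 cells of which none was among the 58 of highest sum. IFNL1 had 2 UMIs in 1 persister cell, which held 69 member UMIs. IFNG had 0 UMIs in parental cells and 35 in 17 persister cells, while the T cell barcodes held 351 UMIs (410 CPM). IFNE was at 33 and 109 UMIs.

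Other genes of the response were higher as well. Of 43 other antiviral and interferon-induced genes, 37 were measured. Past 2-fold, 27 were higher and 0 lower, and the median log2 fold was 1.47. XAF1, a pro-apoptotic factor, was at 0.216 and 147 CPM, BATF2, a transcription factor, at 0.511 and 25.3 CPM, and SLFN5 at 10.7 and 195 CPM. EPSTI1 was at 0.0908 and 14.8 CPM and APOL6 at 5.25 and 89.7 CPM. PNPT1, at 105 and 66.4 CPM (0.632), and SLFN11, at 13.8 and 8.93 CPM (0.648), were lower without reaching 2-fold. Of 12 adaptors and kinases of nucleic acid sensing, 10 were measured and 5 were at least 2-fold higher. AIM2, a sensor of cytosolic DNA, was at 3.27 and 168 CPM, and TLR3, a sensor of endosomal double-stranded RNA, at 1.59 and 14.9 CPM. NLRC5, a regulator of MHC class I genes, was at 2.35 and 19.8 CPM, TRIM25, the ligase that acts on RIG-I, at 35.8 and 99.6 CPM, and IKBKE at 10.2 and 24.6 CPM. MAVS and TBK1, through which RIG-I and MDA5 signal, were at 34.8 and 26.6 CPM and at 25.8 and 25.04 CPM. Of 20 genes used as an interferon-gamma comparison, 19 were measured, of which 18 were past 2-fold higher. Their median log2 fold was 3.92, against 2.64 for the members. CXCL10 was at 0.0113 CPM (1 UMI) and 71.3 CPM, GBP1 at 2.42 and 160 CPM, GBP4 at 0.238 and 37.4 CPM and WARS at 46.2 and 1954 CPM. The difference between the 2 medians was not tested.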

How the data were processed

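The authors deposited 1 matrix per library of whole-number UMI counts for each gene in each barcode, with no normalization, per the file headers. Cell Ranger 3.1.0 and GRCh38 are named in the submitters' processing notes, while the gene annotation they counted on was not stated in any source used here. Positions of all 41 members were read from GENCODE 29 (GRCh38) by gene ID.

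Kept barcodes were summed per library and scaled to CPM. Doublets were neither called nor removed. Measured means 5 CPM or more in either library, called means past 2-fold (1.5-fold for MKI67), and log2 folds use CPM + 1. Cells with at least 5000 UMIs were thinned at random to 5000 (seed 1). With 1 library per group no test was made. Intervals are 95% exact Poisson (sums and their ratios) or Clopper-Pearson (shares) intervals, and they and the floor of 3 UMIs (0.0340 CPM parental, 0.0377 CPM persister) cover counting error only. Intervals of UMI counts take each UMI as independent and leave out the spread between cells. The 2-fold call with its ratio interval and the thinning of 1 cell were tested on simulated counts, and the other steps were not.

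The members, gene lists and settings were chosen with earlier results of these data known. Every member is given by role. Also named are the 5 members with the largest and the 5 with the smallest ratio, members past 1.5-fold by MKI67, the 10 other genes most correlated with the member sum, and up to 5 genes per list by log2 fold. Some genes that this rule names are not reported here. Other genes, and the ISG15 sequence, were picked after their values were seen. Promoters and their letters are from RefSeq, and DDX58 was matched as RIGI.

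Analysis used Python 3.11.15 with numpy 2.4.6, scipy 1.17.1 and pandas 2.3.3. Under R 4.3.3, edgeR 4.0.16 and DESeq2 1.42.0 served for scaling alternatives alone. Other alternatives changed the cell filters, the minimum level, the pseudocount, the thinning depth and seed, and the definition of a dividing cell. The split by depth before thinning, the highest 1% of cells and the removal of those cells were added after seeing the data.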

Additional observations from a re-analysis of the deposited data

How the results depend on the processing

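No paired analysis was possible because each group has 1 library. For the same reason no replicate could be left out. Depth limits the ratios of members with few parental UMIs (RSAD2, IFITM1, TRIM22 and IFI27), whose intervals are wide. For MX2 the counting error is about as large as the difference, and 15 of the 39 members compared by MKI67 in persister cells have an interval that holds 1. The count of members at least 2-fold higher stayed within 1.5 times of 32 under every alternative run, from 24 of 30 with a minimum of 20 CPM to 34 with TMM, with DESeq2 size factors and with no minimum. Over all measured genes, scaling moved the median log2 fold from -0.15 to -0.03 (TMM) and -0.05 (DESeq2). The summed ratio of 3.94 was 4.27 with TMM, 4.20 with DESeq2 size factors, 3.91 with the stricter cell filter, 4.00 at 5000 UMIs, 4.09 in cells without a MKI67 UMI, 4.11 without IFITM3 and 3.85 without the 58 cells of highest sum. The median log2 fold of 2.64 was 2.88 in cells without a MKI67 UMI, 3.13 at 20 CPM, 3.14 with a pseudocount of 0.1, 1.95 with one of 5 and 3.08 without the 58 cells. Member UMIs per persister cell had a median of 11 at 3000 UMIs, 30 at 8000 UMIs and 16 without IFITM3, and the share of cells above the parental 95th percentile was 86.6%, 97.6% and 91.0%. The MKI67 ratio of 0.826 was 0.841 without IFITM3, 0.798 for 2 or more MKI67 UMIs against 0, 0.794 without thinning, and 0.841 and 0.876 in cells of 5000 to under 10000 and of at least 15000 UMIs before thinning. With a second seed the highest 1% of cells held 31.4% of RSAD2 and 16.4% of IFIT2 UMIs. The median log2 folds at 20 CPM and without the 58 cells were taken over fewer members. Without those cells RSAD2, IFIT1 and IFIT2 were under 5 CPM and left the measured set. The pseudocount enters the log2 fold directly. The cause of the other shifts was not tested. Over 39 measured members and 9 alternatives, 341 of 351 ratios kept their side of 2-fold and moved little, 5 passed 2-fold where they had not (ADAR and IFI44), 2 no longer passed it (IFIT5), 3 moved further and 0 changed sign among called members.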
